A study of Mus musculus with 4 samples.

Results

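The osteocalcin genes of the mouse are 3 neighbouring copies, Bglap (ENSMUSG00000074483), Bglap2 (ENSMUSG00000074486) and Bglap3 (ENSMUSG00000074489). They were taken by symbol from the gene lists of both libraries and are 3 of the 32285 genes counted there. The libraries came from the femurs and tibiae of 2 untreated INK-ATTAC mice, 1 young (6 months) and 1 old (24 months). INK-ATTAC mice carry a transgene in which a fragment of the p16 promoter drives an inducible caspase, and both mice carried it without the drug that switches it on. Bone and marrow cells were depleted of blood lineages, sorted as live CD45− cells, labelled with a barcoded antibody against CD24 and run as droplet single-cell libraries that count RNA and antibody molecules (UMIs) of the same cell. There was 1 mouse per age, so every difference between the ages is one between a pair of libraries, given with intervals for counting error only and with no test.

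Osteocalcin is a small protein that mature osteoblasts secrete into bone matrix. Its glutamate residues are carboxylated in a vitamin K-dependent reaction, and the resulting Gla residues bind calcium and let the protein attach to bone mineral. Part of it reaches the blood, where it serves as a marker of bone formation. Bglap and Bglap2 are the copies long known from bone, while Bglap3, the osteocalcin-related gene, has been described in tissues other than bone.

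In the RefSeq annotation of GRCm38.p6 (mm10), the 3 genes lie on the minus strand of chromosome 3 within 15851 bases. Bglap3 spans chr3:88368616-88372741, Bglap2 chr3:88377736-88378701 and Bglap chr3:88383495-88384466, so that 4994 bases separate Bglap3 from Bglap2 and 4793 bases separate Bglap2 from Bglap. Paqr6 and Smg5 lie on the Bglap3 side of the array and Pmf1 and Slc25a44 on the Bglap side. A lncRNA gene (Gm21956) and a pseudogene (Gm6821) lie in the gaps of the array, and neither was counted here. The RefSeq table gave promoter windows for Bglap and Bglap3, and the 250 bases before a start site are shown because some cells that held Bglap3 held almost no Bglap. Capitals mark ACCACA (the core bound by Runx factors), TATAAA and CCAAT, which were searched on both strands and did not overlap one another. Only these exact letters were searched, so near variants, such as tatataa in the first Bglap3 window, stay in lower case. The Bglap window is chr3:88384467-88384716, and the Bglap3 windows, for the first of 3 listed start sites and for the one farthest from it, are chr3:88372742-88372991 and chr3:88369832-88370081, all on the minus strand.
Bglap: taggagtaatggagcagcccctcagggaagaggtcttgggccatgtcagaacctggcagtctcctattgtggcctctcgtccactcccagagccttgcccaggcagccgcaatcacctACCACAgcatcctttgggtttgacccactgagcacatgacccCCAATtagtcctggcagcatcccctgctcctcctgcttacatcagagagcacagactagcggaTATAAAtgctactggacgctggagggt
Bglap3, first start: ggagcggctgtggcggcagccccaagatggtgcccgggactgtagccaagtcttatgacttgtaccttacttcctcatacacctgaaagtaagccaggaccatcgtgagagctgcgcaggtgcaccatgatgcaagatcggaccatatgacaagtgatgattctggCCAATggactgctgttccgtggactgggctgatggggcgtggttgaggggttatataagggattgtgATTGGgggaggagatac
Bglap3, other start: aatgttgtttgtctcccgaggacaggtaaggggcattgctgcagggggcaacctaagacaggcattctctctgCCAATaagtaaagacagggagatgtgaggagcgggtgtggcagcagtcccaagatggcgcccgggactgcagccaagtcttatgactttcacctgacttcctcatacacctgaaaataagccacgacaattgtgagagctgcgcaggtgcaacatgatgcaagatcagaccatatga
The Bglap window held ACCACA 132 to 127 bases, CCAAT 90 to 86 bases and TATAAA 27 to 22 bases before the start. The first Bglap3 window held CCAAT 84 to 80 bases before the start and, on the opposite strand (printed as ATTGG), 17 to 13 bases before it. The other Bglap3 window held CCAAT 177 to 173 bases before its start. Of 32851 windows of the same length in the table, 14.0% held ACCACA, 12.4% held TATAAA and 33.8% held CCAAT. Over the best local alignment, the Bglap3 windows shown shared 136 of 150 columns (90.7%), whereas no Bglap3 window aligned to the Bglap window over more than 23 columns.

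The young library had 11371 barcodes, of which 10063 had at least 200 genes and at most 20% mitochondrial UMIs, and the old library had 6729, of which 5607 did. These kept cells held 81076421 and 66702846 RNA UMIs, with medians of 6385 (young) and 9711 (old) per cell. The libraries shared 25 barcodes, 19 of them among kept cells, and a doublet caller marked 269 young and 57 old cells, which were kept. Cells were clustered without the 3 osteocalcin genes, and the 27 clusters were named only where fixed markers allowed it. Against the label of CD45− lineage-depleted cells, 1259 young (12.5%) and 900 old cells (16.1%) lay in blood-like clusters. The osteoblast-like class was made of cluster 3 (higher for Sp7, Ibsp, Alpl and Runx2) and cluster 8 (those genes and Dmp1, Phex, Ifitm5, Spp1 and Mepe). The class held 1126 young and 553 old cells. Cluster 3 was also higher for 2 markers of tendon or periosteum, and its most raised genes were Tnn, Ostn and Postn. At the coarser resolution of 0.4, the cluster led by these genes was named tendon or periosteum-like. The osteoblast-like class was then a different set, of 678 young and 438 old cells. The sequences of Bglap and Bglap2 are near-identical, so reads can be split between them, and their separate levels are less certain than their sum.

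Osteocalcin RNA was found mainly in osteoblast-like cells. All kept young cells together held 55267 Bglap, 46821 Bglap2 and 2620 Bglap3 UMIs, which is 682, 577 and 32.3 UMIs per 1000000 RNA UMIs (CPM). All kept old cells held 118683 Bglap, 68048 Bglap2 and 5394 Bglap3 UMIs, or 1779, 1020 and 80.9 CPM. Osteoblast-like cells were 11.2% of young and 9.86% of old cells and held 84.5% and 92.9% of the osteocalcin UMIs. Their summed level was 9839 CPM (95% Poisson interval 9774 to 9904) in the young and 21001 CPM (20903 to 21098) in the old library. By copy this was 5203 CPM Bglap, 4395 CPM Bglap2 and 240 CPM Bglap3 in the young library, and 13156, 7341 and 504 CPM in the old one. At least 1 UMI was seen in 89.1% of young and 92.4% of old osteoblast-like cells, with a median of 20 and 35 UMIs per cell. Of the pair of clusters, cluster 8, the one with the markers of late osteoblasts and osteocytes, was the higher in both libraries. Its summed level was 16977 CPM (young) and 32805 CPM (old), against 5994 and 6125 CPM in cluster 3. The median per cell was higher in cluster 3 in both libraries (22 and 36 UMIs, against 7 and 33), so the higher level of cluster 8 rested on its upper cells. Late markers did not all go with a high level. At the finer resolution of 1.2, an osteoblast-like cluster led by Dmp1 and Spp1 (285 young and 174 old cells) had 5281 CPM over both libraries. Another led by Car3 and Ifitm5, also higher for Dmp1 and Phex (92 and 106 cells), had 40770 CPM.

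**Figure D1:**
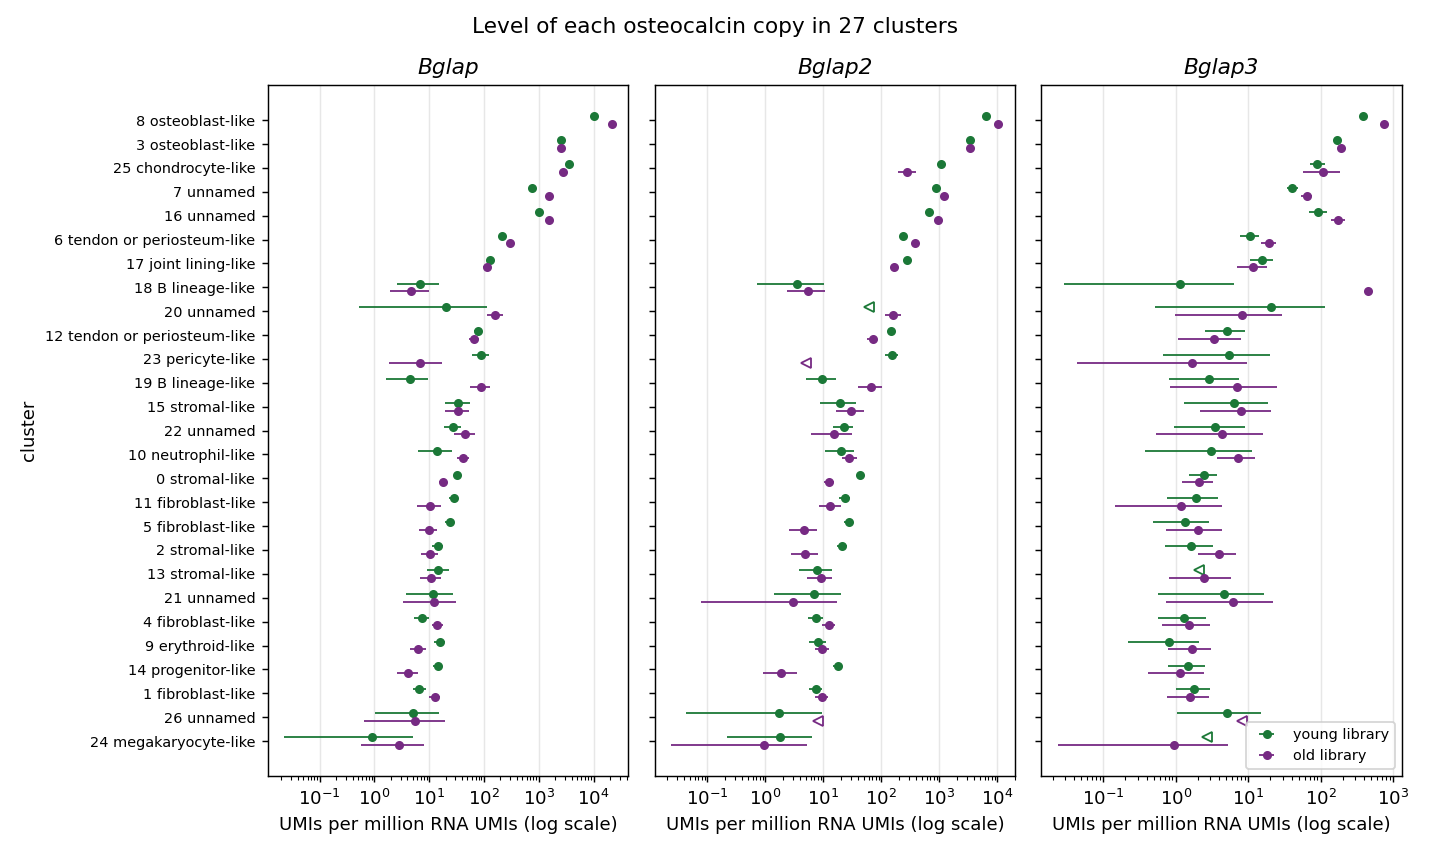
Level of each osteocalcin copy in the 27 clusters of the young and the old library, in CPM on a log axis. Clusters are ordered by their summed level, points carry 95% Poisson bars, and open triangles mark clusters with no UMI, drawn at the level that 3 UMIs would give. Cluster 8 had 16977 (young) and 32805 CPM (old) of the summed copies. Among the low clusters the point to see is Bglap3 in old cells of cluster 18, which is B lineage-like. This cluster held 663 of the 665 Bglap3 UMIs of old B lineage-like cells, which had 375 CPM of Bglap3 when pooled.

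Below the osteoblast-like class, cartilage, joint and tendon cells had more osteocalcin than marrow stroma. Chondrocyte-like cells, which make cartilage matrix, had 4747 CPM in 81 young cells and 3130 CPM in 10 old cells. A single young cell held 1143 of the 3908 osteocalcin UMIs of this class in the young library. Cluster 16, left unnamed for its shallow cells although it was higher for Sp7 and Runx2, had 1776 CPM (young) and 2611 CPM (old). Cluster 7, left unnamed because it mixed cartilage and joint markers, had 1668 and 2778 CPM. Between these clusters, the counting intervals overlapped in both libraries (1669 to 1889 against 1625 to 1711 CPM in the young, and 2470 to 2758 against 2712 to 2844 CPM in the old), so their order is not set, and in the old library the interval of cluster 7 also met that of chondrocyte-like cells (2825 to 3460 CPM). Tendon or periosteum-like cells (385 and 533 CPM) and joint lining-like cells (421 and 286 CPM) followed, and changed places between the libraries. Stromal-like cells of the marrow had 58.5 and 29.5 CPM and fibroblast-like cells 29.3 and 23.9 CPM, against 26.6 and 63.0 CPM in blood-like cells. Without 5 old B lineage-like cells described below, old blood-like cells had 22.2 CPM. Among the mesenchymal classes, pericyte-like cells differed most between the libraries, with 89 UMIs (244 CPM) in 72 young cells and 5 UMIs (8.48 CPM) in 70 old cells. One young cell held 48 of these 89 UMIs, and 8.33% of young and 7.14% of old pericyte-like cells had a UMI.

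Osteocalcin UMIs were concentrated in few cells. In the young library 59 of 10063 cells, and in the old library 15 of 5607 cells, were enough to hold 50% of the summed UMIs. By copy, the number of cells was 34 (Bglap), 82 (Bglap2) and 76 (Bglap3) in the young and 13, 22 and 18 in the old library. The richest 1% of cells held 60.1% (young) and 78% (old) of summed UMIs. For other matrix genes of bone, the richest 1% for that gene held less, with 30.4% and 42.1% for Col1a1 (type I collagen), 17.5% and 28.1% for Ibsp (bone sialoprotein) and 19.9% and 27.4% for Sparc (osteonectin). The highest young cell had 7522 osteocalcin UMIs among 49201, so that 15.3% of its RNA molecules were osteocalcin. The highest old cell had 13261 among 78244 (16.9%), and an old cell ranked after it had 10167 among 48675 (20.9%). There were 13 young and 33 old cells with at least 1000 osteocalcin UMIs, and they held 28.2% and 68.6% of each library's osteocalcin. Of these, 11 and 31 were osteoblast-like, all of them in cluster 8. With cells thinned to 2000 UMIs and shallower cells left out, the richest 1% held 44.6% and 55.4%, so the concentration was lower among these cells at equal depth.

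**Figure D2:**
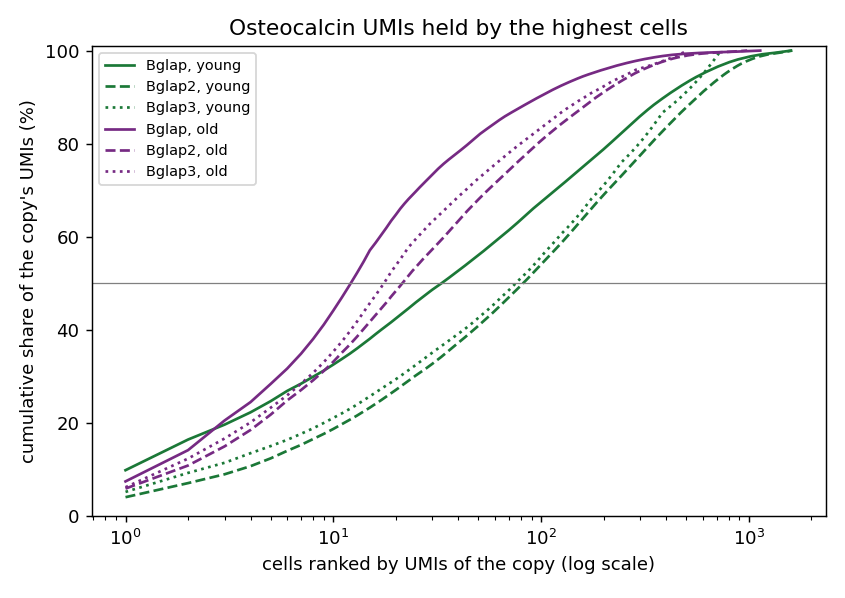
Cumulative share of each gene's UMIs (percent) against the number of kept cells, ranked by that gene's UMIs, on a log axis, in the young and the old library. The grey line marks 50%, which the summed copies reached with 59 young and 15 old cells.

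The copies were held by the same osteoblast-like cells but in changing proportion. Across 1126 young and 553 old osteoblast-like cells, the UMIs of Bglap and Bglap2 had a Spearman correlation of 0.84 and 0.86, those of Bglap and Bglap3 of 0.70 and 0.75, and those of Bglap2 and Bglap3 of 0.72 and 0.78. The cells share a library and, though depth was divided out, differ in how well low levels are seen, so these are descriptions. Of the UMIs of Bglap and Bglap2, Bglap2 made up 45.9% (95% exact binomial interval 45.6 to 46.2) in the young and 36.4% (36.2 to 36.7) in the old library. Within cluster 3 the Bglap2 share was 57.0% and 57.8%, and within cluster 8 it was 38.5% and 32.6%. Cluster 3 thus had more Bglap2 than Bglap in both libraries, and cluster 8 had more Bglap. Among classes with at least 100 osteocalcin UMIs, the Bglap2 share was lowest in chondrocyte-like cells (22.7% in young and 9.19% in old ones) and high in joint lining-like cells (68.2% and 59.5%). Tendon or periosteum-like cells had 55.1% and 55.6%.

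The pooled Bglap2 share was lowest in the cells with most osteocalcin UMIs. Young cells with fewer than 10, fewer than 100, fewer than 1000 and at least 1000 summed UMIs, in successive classes of cells with a UMI, had 55.9%, 54.6%, 49.8% and 31.3% Bglap2, and old cells had 49.1%, 56.3%, 47.3% and 30.8%. The last class was also the deepest, with medians of 25734 and 39999 RNA UMIs. Over single cells with at least 100 UMIs of the pair, the relation was weaker. The share had a Spearman correlation of −0.14 (young) and −0.29 (old) with the osteocalcin level, and of −0.19 and −0.42 with depth. With the level it was −0.06 and −0.36 in cluster 3, and −0.09 and −0.23 in cluster 8. The share was also lower where Dmp1, a matrix protein of late osteoblasts and osteocytes, was detected. Osteoblast-like cells with a Dmp1 UMI had 36.1% (young) and 32.1% (old), against 51.8% and 41.0% in those without one. Without the 10 highest cells of each group, cluster 8 had 45.1% and 34.8% and cluster 3 had 57.3% and 59.9%. The clusters thus kept their order without the cells that held most UMIs. Among osteoblast-like cells with at least 100 UMIs of the pair, the share varied far more than counting allows, with an SD over 163 young cells of 17.2 percentage points and over 164 old cells of 17.0 points, where counting alone gives 3.39 and 3.02. In cluster 3 the cells ranged from 32.0% to 98.4% (median 51.7%) in the young and from 27% to 92.5% (median 52.5%) in the old library. In cluster 8 they ranged from 15.8% to 93.8% (median 41.3%) and from 13.6% to 93.7% (median 35.2%). The ranges of the clusters overlapped in both libraries, while the medians kept the same order.

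**Figure D3:**
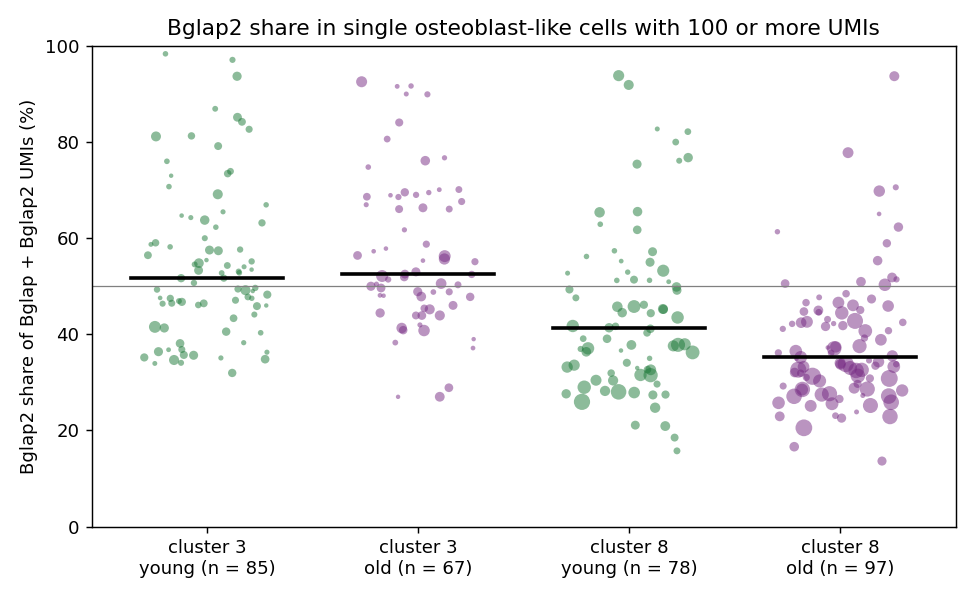
Bglap2 as a percentage of Bglap and Bglap2 UMIs in single osteoblast-like cells with at least 100 UMIs of the pair, by cluster and library (85 young and 67 old cells of cluster 3, 78 and 97 of cluster 8). Point size rises with the UMIs of the pair and black lines are medians, at 51.7% and 52.5% in cluster 3 and 41.3% and 35.2% in cluster 8.

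Within osteoblast-like cells, the pooled level of osteocalcin was highest at middle levels of Ibsp. Split into 4 equal groups from the lowest to the highest Ibsp level, these cells had summed osteocalcin levels of 4826, 8806, 17384 and 7363 CPM in the young library, and of 7163, 34609, 31071 and 8418 CPM in the old one. The group highest in Ibsp (16693 and 23043 CPM of Ibsp) was thus not the highest in pooled osteocalcin in either library. Pooled levels can be set by a few rich cells, and these were not recomputed without them. The Bglap2 share over the same groups was 54.4%, 50.1%, 40.8% and 48.3% in the young, and 41.8%, 35.1%, 32.8% and 45.6% in the old library, lowest in the third group of both.

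Bglap3 was a small part of osteocalcin in bone cells. It made up 2.50% of the 3 copies' UMIs in all kept young cells and 2.81% in old cells, and 2.44% and 2.40% in osteoblast-like cells. In cluster 3 it was 2.75% and 3.10%, in cluster 8 2.24% and 2.29%, and in the shallow cluster 16 it was 5.20% and 6.64%. Of young osteoblast-like cells with Bglap3 UMIs, 12 lacked Bglap and 2 lacked Bglap2, and of old ones 7 and 4.

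In the old library, Bglap3 stood apart in cells that carried immunoglobulin RNA. There were 5 cells with 336, 170, 90, 40 and 16 Bglap3 UMIs in which the other copies had 0 or 1 UMI each. All 5 lay in cluster 18 of the B lineage-like class, which was higher for Cd79a, Cd79b and Ighm and also for 4 of the plasma cell markers. Their depth was 69762, 61574, 66407, 80857 and 15094 RNA UMIs. Immunoglobulin genes made up 53.5%, 51.4%, 60.7%, 42.2% and 19.8% of these. The heavy chain gene Ighm was abundant in each (1334 to 10294 UMIs), the leading light chain was Igkc in 4 of the cells and Iglc1 (30744 UMIs) in the other, and Xbp1, a transcription factor of antibody-secreting cells, had 28 to 258 UMIs. Other genes of this lineage were uneven, with 0, 424, 72, 159 and 2 UMIs of Jchain and 18, 0, 41, 0 and 2 of Mzb1 in the same order of cells, and Cd79a had 0 or 1 UMI in each. Osteoblast genes were near 0 in the same cells, with 0 to 6 UMIs of Col1a1, 0 to 3 of Col1a2 and 0 to 2 of Ibsp. The neighbouring genes Paqr6 and Pmf1 had no UMI in any of them, and Smg5 had 2 UMIs in the fifth cell and none in the others. None was called a doublet and none passed the CD24 threshold.

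These 5 cells were chosen after their values were seen. In the old library, 25 B lineage-like cells had at least 10% immunoglobulin UMIs, a limit set after the values were seen. They held 662 Bglap3 UMIs (558 CPM, 516 to 602), against 3 Bglap and 4 Bglap2 UMIs, at a median depth of 55250 UMIs, and Bglap3 was present in 12 of them. The 5 cells picked for their Bglap3 held 652 of these UMIs, and the other 20 cells held 10 (11.2 CPM, 5.37 to 20.6). The other 59 old B lineage-like cells held 3 Bglap3 UMIs (5.12 CPM, 1.06 to 15.0). The young library had 392 B lineage-like cells, none with more than 2.73% immunoglobulin UMIs, and they held 5 Bglap3 UMIs (2.23 CPM, 0.724 to 5.20). A comparison of such cells between the ages was therefore not possible. Outside the B lineage-like class, 124 young and 143 old cells had at least 5 Bglap3 UMIs, Bglap3 exceeded the other copies in 0 of them, and its highest share of a cell's osteocalcin was 20.7% and 19.6%.

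**Figure D4:**
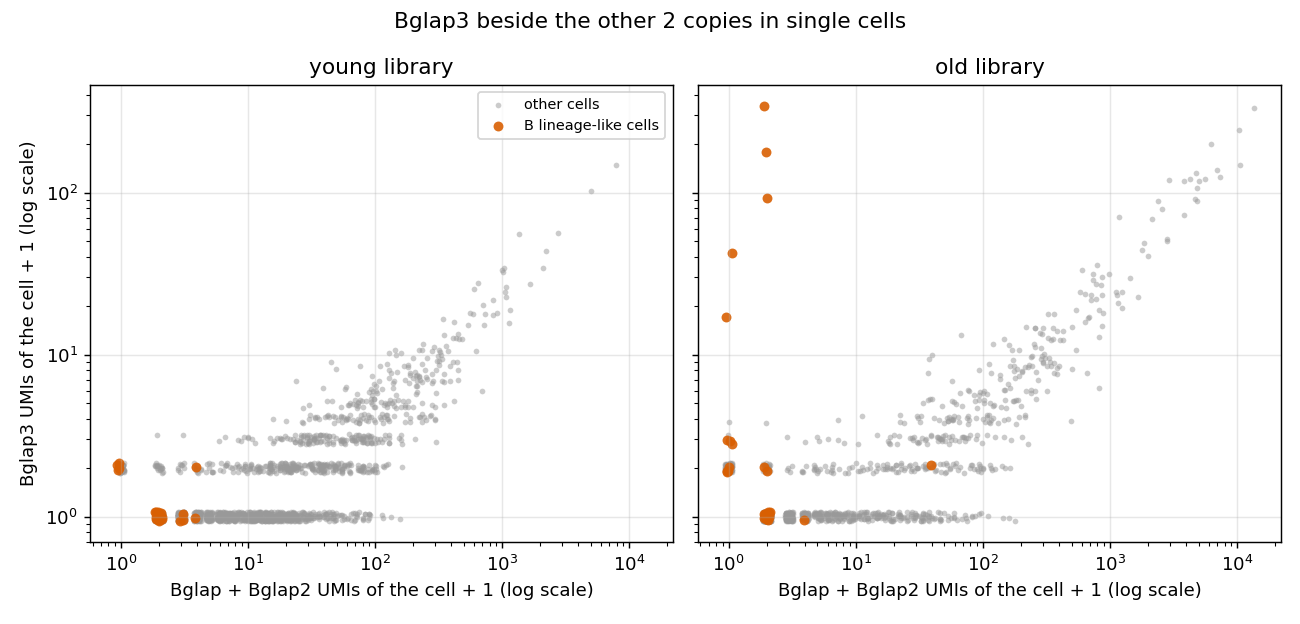
Bglap3 UMIs plus 1 against the UMIs of Bglap and Bglap2 plus 1, both on log axes with jitter, for cells with at least 1 osteocalcin UMI in each library. Orange points are B lineage-like cells. The 5 old cells with 16 to 336 Bglap3 UMIs and at most 1 other osteocalcin UMI lie at the left edge, and no young cell with at least 5 Bglap3 UMIs lies there.

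Blood cells do not make bone matrix, so blood-like clusters served as the measure of background. Their summed level was 26.6 CPM (24.3 to 29.1) in the young and 63.0 CPM (59.1 to 67.0) in the old library, against 9839 and 21001 CPM in osteoblast-like cells. Bglap had 12.6 CPM in young and 10.4 CPM in old blood-like cells, and Bglap2 had 12.6 and 8.99 CPM. Relative to the level over the whole library, this was 1.85% and 0.583% for Bglap and 2.19% and 0.881% for Bglap2. The same ratio was 4.75% and 2.74% for Col1a1, 5.12% and 2.77% for Col1a2, 4.68% and 2.53% for Sparc and 4.02% and 2.18% for Ibsp. The background of Bglap and Bglap2 was thus smaller, for their level, than that of these other bone genes in both libraries. Bglap3 was the exception, at 4.20% (young) and 53.9% (old). Without the 5 cells described above, old blood-like cells had 2.69 CPM of Bglap3 in place of 43.6 CPM, and 22.2 CPM of the summed copies.

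A few cells also set the young background. One young progenitor-like cell held 217 of the 470 osteocalcin UMIs in blood-like cells, and 6 young cells with at least 10 UMIs, 4 of them called doublets, held 325. Without the richest 1% of blood-like cells, the summed level was 6.40 CPM (young) and 13.6 CPM (old). At least 1 osteocalcin UMI was seen in 8.66% of young and 18.8% of old blood-like cells, at median depths of 8482 and 9918 UMIs. After thinning to 2000 UMIs, again without shallower cells, the shares were 2.64% and 5.52%. Shares of stromal-like cells with a UMI, at 6.27% (median depth 5114 UMIs) and 15.5% (8381 UMIs) before and 2.76% and 4.90% after thinning, were below or close to these shares. Detection alone therefore did not set stromal-like cells apart from background. Their pooled CPM, given above, was higher than that of blood-like cells in the young library. In the old library it was lower only with the 5 Bglap3 cells counted.

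The old library had more osteocalcin RNA than the young one, and cluster 8 held 51.0% (young) and 80.9% (old) of its UMIs. Over all kept cells, the log2 ratio of old to young CPM was 1.38 for Bglap (95% counting interval 1.37 to 1.40), 0.82 for Bglap2 (0.80 to 0.84), 1.32 for Bglap3 (1.26 to 1.39) and 1.16 for their sum (1.15 to 1.17). Of 14589 genes with at least 100 UMIs, 2.83% were at least 2-fold higher in the old library, among them 2 of the 3 copies (Bglap and Bglap3). Within osteoblast-like cells the log2 ratios were 1.34, 0.74 and 1.07, and 1.09 for the sum. There 1.14% of 9796 genes were at least 2-fold higher, again with Bglap and Bglap3 among them. Within cluster 8 the ratios were 1.08, 0.71 and 0.98, and 0.95 for the sum. In cluster 3 Bglap stood at 2506 CPM in both libraries (log2 interval −0.04 to 0.04), and the ratios were 0.05 for Bglap2 (0.01 to 0.08) and 0.21 for Bglap3 (0.06 to 0.35). Cluster 8 took up 377 of 1126 young and 280 of 553 old osteoblast-like cells. At resolution 1.2, the high cluster led by Car3 and Ifitm5 held 92 young and 106 old cells, and the low one led by Dmp1 and Spp1 held 285 and 174. The ratios within cluster 8 were not split by these groups. Outside the osteoblast-like class Bglap had 118 CPM in both libraries, Bglap2 was at −0.06 (−0.12 to −0.01), and Bglap3 stood at 6.38 and 19.1 CPM, or 7.96 CPM in the old library without the 5 Bglap3 cells.

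The size of this difference moved with a few cells and with the way cells were thinned and weighted. Without the richest 1% of cells of each library the summed log2 ratio over all kept cells was 0.32. Thinned to 2000 UMIs per cell, with shallower cells left out, it was 0.24 over all kept cells and 0.39 in osteoblast-like cells. Bglap2 was then at −0.02 over all kept cells. The thinned value is a mean per cell, so it differs from the CPM ratio in cell weighting and in the cells included as well as in depth. These parts were not separated. As mean UMIs per cell without thinning, the summed log2 ratio was 1.72 over all kept cells. The share of cells with a UMI, 20.5% (young) and 27.5% (old), was 14.7% and 15.3% after thinning.

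**Figure D5:**
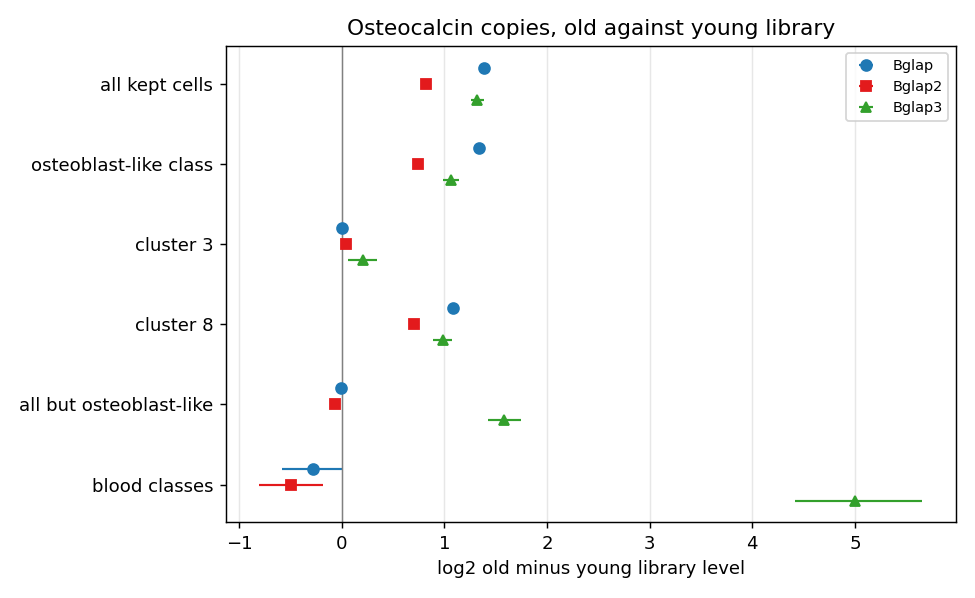
Log2 ratio of old to young CPM for each copy, by region of the data, with 95% counting intervals. The 3 copies were near 0 in cluster 3 and between 0.71 and 1.08 in cluster 8, and Bglap3 in blood-like cells, at 5.00, was set by 5 old cells.

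Some other genes of mature osteoblasts and osteocytes were also higher in the old library. Of the list used here, Ibsp, Alpl, Dmp1, Phex, Ifitm5, Spp1 and Mepe also served to name the clusters. Over all kept cells, 4 of 14, with Mepe, Sost, Ifitm5 and Car3 as the ones past the limit, were at least 2-fold higher in the old library and none lower, with a median log2 ratio of 0.78, against −0.02 over all 14589 genes. In osteoblast-like cells 5 of 14 were higher and none lower (median 0.85, against −0.10 over all 9796). The latter were Phex (44.2 and 335 CPM), an endopeptidase that regulates phosphate, Smpd3 (126 and 348 CPM), a sphingomyelinase needed for bone mineral, Car3 (392 and 996 CPM), Ifitm5 (168 and 362 CPM), a membrane protein restricted to bone, and Sost, the osteocyte gene for sclerostin, with 1 young and 103 old UMIs. Spp1 (osteopontin) stood at 16017 CPM in young and 8728 CPM in old osteoblast-like cells, and Dmp1 at 187 and 173 CPM. Of 7 osteoblast transcription factors with enough UMIs, none was 2-fold different over all kept cells, and Dlx3 (15.9 and 32.4 CPM) was at least 2-fold higher in old osteoblast-like cells. Runx2 had 400 and 342 CPM there and Sp7 134 and 154 CPM.

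Genes that act on osteocalcin differed little. None of the 5 genes of the vitamin K cycle and Gla modification was 2-fold different in either set of cells (medians of 0.01 and 0.07). In osteoblast-like cells Ggcx, the carboxylase that makes Gla residues, had 24.3 CPM (young) and 24.9 CPM (old), and Vkorc1, which recycles vitamin K, had 287 and 324 CPM. Of 4 other Gla proteins, Ucma of cartilage was lower in the old library (11.1 and 2.10 CPM over all kept cells), which held 10 chondrocyte-like cells against 81. Mgp, the matrix Gla protein, had 3695 and 3427 CPM. Of the proposed receptors, Gprc6a had no UMI in either library and Gpr158 had 1 young UMI. The insulin receptor gene Insr, listed as a partner and not as a receptor of osteocalcin, had 17.8 and 19.1 CPM. None of the 4 counted neighbours of the array (Smg5, Paqr6, Pmf1 and Slc25a44) was 2-fold different, and their median log2 ratio was 0.00 over all kept cells.

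The antibody allowed CD24+ and CD24− cells of the same mouse to be compared, which addresses how much osteocalcin the CD24+ osteolineage cells carry. Cells with at least 313 (young) or 398 (old) antibody UMIs were called CD24+. UMIs were summed per mouse and CD24 status and tested with edgeR's quasi-likelihood test with the mouse as a block, so each p-value rests on 2 mice. Over all mesenchymal clusters, the 3 copies were higher in CD24+ cells of both mice. Bglap stood at 2064 against 768 CPM in the young and 3896 against 2355 CPM in the old mouse (log2 difference 1.15, SE 0.14, adjusted p = 0.00359). Bglap2 stood at 2140 against 589 CPM and 3011 against 1277 CPM (1.63, SE 0.13, adjusted p = 8.19e-04). Bglap3 stood at 104 against 34.4 CPM and 195 against 89.1 CPM (1.44, SE 0.11, adjusted p = 7.75e-04). Of 15105 genes tested, 5.01% rose in CD24+ cells. Osteoblast-like cells made up 41.6% (young) and 44.3% (old) of CD24+ and 12.3% and 12.1% of CD24− mesenchymal cells. Without the mouse as a block none of the 3 copies passed (adjusted p between 0.145 and 0.431).

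Within osteoblast-like cells, Bglap fell in CD24+ cells. It stood at 4229 against 5602 CPM in the young and 7490 against 14371 CPM in the old mouse (log2 difference −0.66, SE 0.12, adjusted p = 0.00556), lower in CD24+ cells of both. In this comparison 1.10% of 11832 genes fell in CD24+ cells. Bglap2 stood at 4689 against 4274 CPM and 5891 against 7651 CPM (−0.11, SE 0.12, adjusted p = 0.828), in opposite directions in the mice. Bglap3 had 222 against 248 CPM and 375 against 531 CPM (−0.32, SE 0.11, adjusted p = 0.204), and the sum of the copies was at −0.41 (SE 0.12, adjusted p = 0.108), both short of the threshold. Cluster 8 was 17.2% (young) and 25.6% (old) of CD24+ and 37.9% and 55.2% of CD24− osteoblast-like cells, and the median depth was 9799 and 16439 against 5688 and 11034 UMIs. The call for Bglap was lost when cells were thinned to 2000 UMIs (−0.18) and when clusters were cut at the other resolutions (−0.23 and −0.52), and without the block (−0.77, adjusted p = 0.964). Within cluster 8, Bglap was at 9652 against 10317 CPM (young) and 15973 against 22367 CPM (old). In cluster 3 it was higher in CD24+ cells of the young mouse (2943 against 2259 CPM) and at 2394 against 2543 CPM in the old one, so within cluster 3 the mice did not share a direction.

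CD24+ osteoblast-like cells also had a higher Bglap2 share of the pair, at 52.6% against 43.3% in the young and 44.0% against 34.7% in the old mouse, given here with no test. In cluster 8 it was 48.2% against 36.4% and 40.2% against 31.7%, and in cluster 3 55.5% against 58.0% and 55.4% against 58.5%. The higher pooled share was thus found in cluster 8 of both mice and not in cluster 3. The CD24+ groups of cluster 8 were small, with 41 young and 22 old cells. The highest cell held 27.8% (young) and 43.6% (old) of the osteocalcin UMIs of these groups. In CD24− cells of cluster 8, the highest cell held 17.1% (young) and 9.47% (old). Pooled shares can be set by such cells, and these were not recomputed without them. The highest old CD24+ cell held 6737 (32.6%) of the 20637 osteocalcin UMIs of all old CD24+ osteoblast-like cells.

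Other late genes moved in the same fit. Of the 14 mature osteoblast and osteocyte genes, 5 fell in CD24+ osteoblast-like cells, and they were Spp1 (log2 difference −1.63, adjusted p = 2.52e-06), Mepe, an osteocyte matrix protein (−4.12, adjusted p = 7.02e-07), Car3 (−1.45, adjusted p = 2.00e-06), Ifitm5 (−0.94, adjusted p = 0.00499) and Smpd3 (−0.97, adjusted p = 5.72e-04). Phex (1.08, adjusted p = 5.45e-04) and Omd, the bone proteoglycan osteomodulin (0.52, adjusted p = 0.00973), rose, and Sost stood at 1.50 (adjusted p = 0.0745), short of the threshold. Of the transcription factors, Vdr, the vitamin D receptor (−1.30, adjusted p = 4.87e-05), fell, while Runx2 stood at −0.16 and Sp7 at −0.03, short of the threshold. Ggcx stood at −0.28 (adjusted p = 0.666) and Vkorc1 at 0.07 (adjusted p = 0.879). Over all mesenchymal clusters, 8 of the same 14 genes rose in CD24+ cells, among them Alpl (1.79, adjusted p = 6.78e-05), Col1a1 (1.34, adjusted p = 9.03e-05) and Ibsp (0.76, adjusted p = 0.0315), and Mepe fell (−2.21, adjusted p = 0.0065). Cd24a, the gene of the antibody's target, was higher in CD24+ cells of the osteoblast-like class (1.69, adjusted p = 0.00326) and of all mesenchymal clusters (2.83, adjusted p = 1.83e-04).

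Across the 24 clusters with at least 20 cells in each library, the genes whose level followed the summed copies most closely were Col13a1, a transmembrane collagen (Pearson r = 0.93 of log2 CPM, mean of the libraries), Cgref1 (0.91), Insc (0.91), Ptprz1, a receptor-type phosphatase (0.91), Itga10, a collagen-binding integrin chain (0.90), Mlip (0.90), Col24a1, a fibrillar collagen of bone (0.90), and Alpl, alkaline phosphatase (0.90). For Bglap3 they were Mlip (0.92), Col13a1 (0.91), Ifitm5 (0.90), Prss35 (0.89) and Kcnmb4 (0.87). By the same measure Ibsp stood at 0.56 and Runx2 at 0.54 against the summed copies, and Mgp at 0.07. The clusters share libraries and free RNA, so these values describe likeness of level only.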

How the data were processed

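RNA and CD24 antibody molecules were measured in 1 young and 1 old mouse. The deposited values are raw counts of UMIs per gene or antibody and barcode. They were made by the authors with Cell Ranger (version 6.1.1 per the file headers), on mm10 per the submitters' notes. Barcodes with at least 200 genes and at most 20% mitochondrial UMIs were kept, with totals of 81076421 (young) and 66702846 (old) RNA UMIs. Clusters came from Seurat 5.3.0 (SCTransform per library, anchor integration on 3000 features, 30 components, resolution 0.8), with the osteocalcin genes left out. A cluster was named from at least 3 of its fixed markers. It stayed unnamed where markers of another kind were among its top 10 genes or its cells were shallow, limits that were set after the clusters were seen. Doublets were called with Scrublet in scanpy 1.11.5 and kept. Levels are UMIs per 1000000 RNA UMIs over a group of cells. Intervals (95%, exact Poisson, binomial or conditional) cover counting error only. For old against young, genes with at least 100 UMIs over both libraries were counted past a 2-fold limit. CD24+ cells were set by an Otsu threshold on the log antibody counts of each library. CD24 sums per mouse were tested with edgeR 4.0.16 (R 4.3.3, quasi-likelihood, mouse as a block, Benjamini-Hochberg adjustment over all genes, threshold 0.05), with DESeq2 1.42.0 as an alternative. The CD24+ and CD24− sums of a mouse come from the same animal, so the mouse pairs them, and 4 sums leave 1 residual degree of freedom. Likeness to osteocalcin was Pearson's r of log2(CPM + 1) over clusters with at least 20 cells in each library. The scripts' tests were checked on simulated counts. The genes named are the 3 copies, the members of the fixed lists and the genes most like the copies. Some genes of the lists are not reported here. The members and lists were chosen with earlier results of these data known.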

Additional observations from a re-analysis of the deposited data

Results flagged for a closer look

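CD24+ and CD24− cells differed in opposite directions in the mice for several sums, with 1 mouse per direction, and the difference between the mice was not tested. Over all kept cells, the log2 difference of CD24+ minus CD24− cells for Bglap was 0.061 (young) and −1.22 (old). It was 0.45 and −0.70 for Bglap2, 0.21 and −1.02 for Bglap3, and 0.25 and −1.02 for the sum. These sums mix kinds of cells, since 574 of 1573 young and 194 of 760 old CD24+ kept cells lay in mesenchymal clusters. Within the mesenchymal clusters each copy was higher in CD24+ cells of both mice. In osteoblast-like cells Bglap2 stood at 0.13 and −0.38. In cluster 3 the values were 0.38 and −0.087 for Bglap, 0.23 and −0.27 for Bglap2, 0.23 and −0.39 for Bglap3, and 0.30 and −0.20 for the sum. In cluster 8, the one with late markers, Bglap3 stood at 0.065 and −0.018 and the sum at 0.20 and −0.29.

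Old minus young differences also took opposite directions in osteoblast-like and blood-like cells, untested with 1 library per age. Bglap was at 1.34 in osteoblast-like and −0.28 in blood-like cells (95% counting interval −0.58 to 0.01), and Bglap2 at 0.74 and −0.49. The direction in blood-like cells was carried by 1 young cell with 96 of 223 Bglap and 116 of 223 Bglap2 UMIs. Without the highest cell of each library, an alternative chosen after seeing the data, blood-like cells were at 0.53 for Bglap (7.21 and 10.4 CPM) and 0.56 for Bglap2 (6.08 and 8.96 CPM), the same direction as in osteoblast-like cells. Without the richest 1% they were at 1.19 and 0.73.

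Barcodes removed by the filters, outside the comparisons above, held 939 osteocalcin UMIs in the young library (587 CPM, 0.889% of all) and 1028 in the old one (548 CPM, 0.532% of all). Among the cells of the blood-like clusters the level was 26.6 and 63.0 CPM.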

How the results depend on the processing

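Of 225 alternatives over 28 values, 137 kept direction and call or moved by less than the error, 68 moved by more, 8 lost and 2 gained a call, and 10 turned. Those that turned, those of the CD24 tests and those of the summed copies and shares follow. Single copies of old against young also moved: over all kept cells Bglap (1.38) was 0.47 thinned, 0.41 without the richest 1% and 1.95 per cell, and Bglap3 (1.32) was 0.30 thinned. In osteoblast-like cells Bglap2 (0.74) was 0.093 thinned and Bglap (1.34) was 1.50 without the richest 1%. The cause of these shifts was not tested beyond the construction of each alternative. The alternatives without 5 or 10 cells were chosen after seeing the data.

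The old minus young log2 ratio of the sum over all kept cells (1.16) was 1.18 at 10% mitochondrial UMIs, 1.72 as UMIs per cell, 0.24 thinned to 2000 UMIs and 0.32 without the richest 1% of cells. In osteoblast-like cells (1.09) it was 1.11 without the copies in the total, 2.04 per cell, 0.39 thinned, 1.13 without the richest 1%, and 1.08 and 1.00 at resolutions 0.4 and 1.2. Here and below, the class at resolution 0.4 left out the cluster led by Tnn, Ostn and Postn. Bglap2 over all kept cells turned to −0.023 when thinned. The richest 1% of cells held 59.7% (young) and 77.0% (old) at 10% mitochondrial UMIs, 59.8% and 77.5% at 500 genes, 44.6% and 55.4% when thinned, and in the young library 61.1% without doublets.

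The young blood-like level (26.6 CPM) was 8.22 without doublets, 6.40 without the richest 1%, 24.2 in erythroid-like, 14.7 in B lineage-like and 36.9 in neutrophil-like cells. The old one (63.0 CPM) was 13.6, 17.5, 408 and 76.9 CPM in the last 4 of these, and 22.2 without the 5 Bglap3 cells.

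The Bglap2 share of the pair, as a mean over cells with at least 100 UMIs, was 49.96% (young) and 46.5% (old) over all kept cells and 50.2% and 46.3% in osteoblast-like cells. The latter had 38.5% and 32.6% at resolution 0.4, 46.3% and 36.2% at 1.2, and 51.8% and 39.95% without the 10 highest cells. The Bglap3 share of young osteoblast-like cells was 2.30% at resolution 0.4, 2.63% without the 10 highest cells and 2.56% as a mean. In old ones it was 2.61% without those cells and 2.75% as a mean, and over all old cells 3.76% as a mean and 2.48% without the 5 cells.

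For CD24+ minus CD24− in osteoblast-like cells, the sum (−0.41) passed the edgeR threshold without a low-count filter (−0.43) and without doublets (−0.39, adjusted p = 0.0476), and turned when thinned (0.015) and at resolution 0.4 (0.012). Bglap lost its call without the replicate block (−0.77), thinned (−0.18) and at resolutions 0.4 (−0.23) and 1.2 (−0.52). Bglap2 turned with the highest antibody counts only (0.056), thinned (0.23) and at resolutions 0.4 (0.38) and 1.2 (0.000247), and Bglap3 thinned (0.087) and at 0.4 (0.042). With each mouse alone, which gives no test, values ran from −0.71 to −0.15 (sum), −0.94 to −0.41 (Bglap), −0.38 to 0.13 (Bglap2, turned in the young mouse) and −0.50 to −0.15 (Bglap3). In mesenchymal clusters no copy passed without the replicate block (sum 1.24, Bglap 1.02, Bglap2 1.55, Bglap3 1.35), and each mouse alone gave 0.93 to 1.63, 0.73 to 1.43, 1.24 to 1.86 and 1.13 to 1.60.

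Genes called higher and lower in osteoblast-like cells (136 and 130) were 0 and 0 without the block in edgeR (311 and 311 at an unadjusted p under 0.05), 38 and 36 in DESeq2, 248 and 220 without a filter, 214 and 190 without doublets, 74 and 68 thinned, 42 and 10 at resolution 0.4 and 69 and 62 at 1.2. In mesenchymal clusters (757 and 741) they were 77 and 55 without the block, 502 and 418 in DESeq2 and 1145 and 1400 without a filter.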

Other observations

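The genes next to the osteocalcin array on chromosome 3 had low levels in both libraries. Over all kept cells Smg5 had 18.0 CPM (young) and 19.1 CPM (old), Paqr6, which lies 74 bases from Bglap3, had 2.08 and 1.95 CPM, Pmf1 had 23.3 and 22.1 CPM and Slc25a44 had 10.3 and 12.0 CPM. In osteoblast-like cells, where the copies stood at 9839 and 21001 CPM, Smg5 had 19.1 and 20.0 CPM and Pmf1 15.8 and 14.0 CPM.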
